A study of Homo sapiens with 12 samples.

Results

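Interferon response and MHC class I genes were followed in H358, a human lung adenocarcinoma cell line, on one-colour Agilent 44 k expression arrays. The set holds 47 gene symbols: receptor and JAK-STAT genes, interferon regulatory factors, RNA sensors, the IFIT, OAS, IFITM, MX and GBP families, the ISG15 system, further interferon-induced genes, and the chains and peptide-loading genes of MHC class I. Members were chosen by symbol, through the RefSeq accession of each probe. Probes were found for 46 of the 47 genes, 70 of the 41000 gene probes on the array, which name 16557 genes in all. The accession on the array for IFI27 was not in the RefSeq gene table, so no value is given for that gene.

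All 12 arrays carried RNA of a single inducible clone, H358/Tet-On/SRSF2, in which a Tet-responsive promoter drives the splicing factor SRSF2. The labels call 6 arrays control, with no treatment, and 6 arrays SRSF2 over-expression, with 1 µg/mL doxycycline for 24 hours. Controls were taken at 24 hours too, and their labels give no doxycycline dose. Arrays of both conditions stood on each of 3 slides, 2 against 2. The study's supplement describes 3 labelings per condition with 2 arrays each, so the arrays of a condition are partly technical replicates, and p-values measure the spread between arrays.

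The interferon response starts when receptors such as RIGI and IFIH1 detect foreign RNA and regulatory factors such as IRF3 and IRF7 switch on interferon genes. Secreted interferon binds its receptor on the cell surface, the kinases JAK1 and TYK2 phosphorylate STAT proteins, and a complex of STAT2 and IRF9 binds a promoter element called ISRE. Its targets include antiviral proteins (IFIT, OAS, MX, IFITM), the ubiquitin-like modifier ISG15, and the genes of the MHC class I pathway. That pathway cuts proteins into peptides, moves them into the endoplasmic reticulum through TAP1 and TAP2, and presents them on HLA heavy chains paired with B2M. Epithelial tumour cells can express many of these genes at a basal level without added interferon.

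The ISRE core was searched as GAAA, any 2 bases and a further GAAA, or its reverse complement with TTTC in both places, in RefSeq promoter windows of 300 bases (250 before to 50 after the start, build GRCh38.p14). Of 35116 windows, 3.57% held it on either strand, with overlapping matches allowed, and of 27305 genes 4.38% had it in at least 1 window. Windows were found for 34 members, and 21 of these, 61.8%, held a match. The match was in 6 of 7 genes with a probe called higher in the arrays labelled SRSF2 over-expression, in 5 of 8 with a probe called lower, and in 9 of 17 without a call. The stretches below are shown because members measured higher (the IFIT genes and B2M) and members measured lower (MX1, ISG15, ISG20) carry the same letters. Capitals mark the matches, where overlapping matches run together, and all are read on the strand of the gene, the plus strand. The stretches are IFIT1 at chr10:89392492-89392544, IFIT3 at chr10:89327826-89327899 and, for its other start, chr10:89332420-89332502, IFIT5 at chr10:89414508-89414588, B2M at chr15:44711358-44711403, MX1 at chr21:41431839-41431878, ISG15 at chr1:1013369-1013414 and ISG20 at chr15:88638932-88638971.
IFIT1: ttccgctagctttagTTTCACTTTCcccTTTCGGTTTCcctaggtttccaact
IFIT3, first window: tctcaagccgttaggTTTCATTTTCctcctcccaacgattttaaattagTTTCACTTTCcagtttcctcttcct
IFIT3, other window: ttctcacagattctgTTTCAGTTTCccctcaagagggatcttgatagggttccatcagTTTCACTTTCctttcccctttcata
IFIT5: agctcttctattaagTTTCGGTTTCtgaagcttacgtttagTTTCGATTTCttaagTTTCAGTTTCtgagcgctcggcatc
B2M: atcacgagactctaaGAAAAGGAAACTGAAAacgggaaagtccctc
MX1: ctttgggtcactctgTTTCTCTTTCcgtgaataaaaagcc
ISG15: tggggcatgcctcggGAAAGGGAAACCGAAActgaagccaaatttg
ISG20: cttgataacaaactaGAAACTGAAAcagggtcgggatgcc
IFIT1, both IFIT3 windows and B2M hold 2 matches each, IFIT5 holds 3, ISG15 holds 2 and the MX1 and ISG20 stretches hold 1. IFNAR1, IFNGR1, JAK1, IRF1, IRF9, STAT2, RIGI, OAS1, IFI35, HERC6, XAF1, HLA-B and HLA-C had no match of these letters in their windows. No window was in the table for MX2, NLRC5, IRF3, IRF7, IRF2, IFIT2, USP18, OASL, OAS2, IFITM2, GBP2, TRIM22 or HLA-E.

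Values below are log2 signals, meaning the log2 of the background-subtracted probe signal minus the 75th percentile of its array, so 0 is the brightness of the probe at that percentile. Levels of single probes were not compared with each other, since probes differ in efficiency. Spots well above background made up 54.2% to 67.8% of the gene spots on control arrays and 55.2% to 68.0% on those labelled SRSF2 over-expression. No spot reached saturation. All 6 epithelial marker genes were well above background on the 12 arrays. So were CD14, a leukocyte gene, and 1 of 3 endothelial or fibroblast genes (PECAM1), while PTPRC, the marker common to leukocytes, was so on 2 control arrays and 3 others, and CDH5 and COL3A1 on 0. PECAM1 was lower under the SRSF2 over-expression label (difference -0.47), and its part in the results was not tested.

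The targeted gene was examined first. The SRSF2 probe ran against its label: it measured 3.73, 3.94 and 4.02 (lowest, median, highest) in controls, against 2.28, 2.49 and 2.51 under the SRSF2 over-expression label. The difference was -1.46 on the log2 scale (SE 0.06, n = 6 arrays per condition, adjusted p = 1.19e-09, limma with Benjamini-Hochberg adjustment over 24338 probes), and the values did not overlap. It was similar on the 3 slides, at -1.49, -1.50 and -1.41. The study itself reports more SRSF2 mRNA by RT-PCR in the over-expressing cells, which was not re-examined here. Which part of the SRSF2 transcripts the array probe detects was not examined. Every "higher" or "lower" below means higher or lower in the arrays labelled SRSF2 over-expression, whatever the SRSF2 level was.

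Of the 70 member probes, 56 probes of 43 genes were bright enough to be tested, and 54 of them were well above background on all 12 arrays. At an adjusted p of at most 0.05, 11 member probes were higher and 14 were lower, 25 of 56 or 44.6%. The same threshold called 57.9% of all 24338 probes tested (29.5% higher, 28.4% lower), so the members' share was below the background. No member reached a 2-fold difference, against 7.02% of all probes (27 of the 56 had an unadjusted p under 0.05, and the methods' t-test called 24). The median log2 fold change was 0.0033 over the members and 0.0044 over all probes, and the median size regardless of sign was 0.21 and 0.30. A size of at least 0.4 was measured in 21.4% of the members and 38.8% of all probes. The member probes tested were also brighter, with a median log2 signal of 0.42 against -0.61 over all probes tested. The part of brightness in these shares and sizes was not tested.

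**Figure D1:**
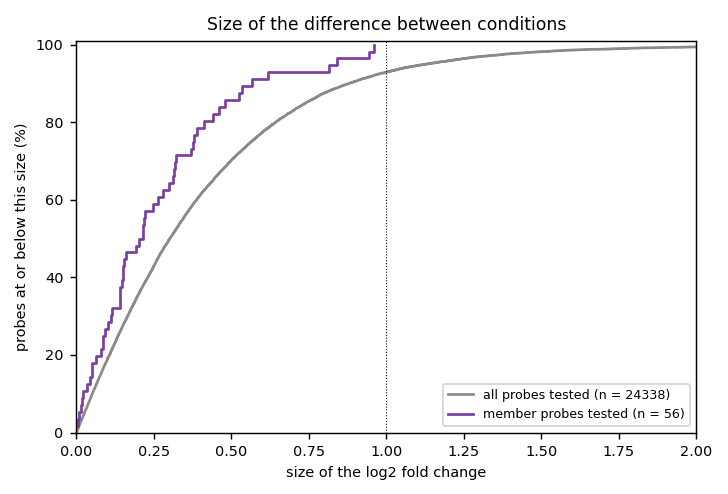
Cumulative share of probes (vertical axis, percent) at or below a given size of log2 fold change (horizontal axis) between the conditions, for the 56 member probes tested and all 24338 probes tested. The members' curve lies to the left, with a median size of 0.21 against 0.30, and ends before the dotted line at a log2 size of 1, which is 2-fold.

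By gene, 10 members had a probe that was higher, 13 had one that was lower, none had calls in both directions, and 20 had no called probe. The calls went both ways within the pathway. The IFIT genes, both IRF7 probes, IFI35 and B2M were higher, while IFNAR1, 1 JAK1 probe, IRF3, MX1, MX2, the ISG15 system and NLRC5 were lower. All 25 called probes had the same sign on all 3 slides, as did 99% of all probes called. The values of the conditions did not overlap for 20 member probes, 8 with higher and 12 with lower values, and this was so for 40.2% of all probes tested (21.2% higher, 19% lower). Those 20 are 19 called probes and the uncalled IRF9 probe.

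**Figure D2:**
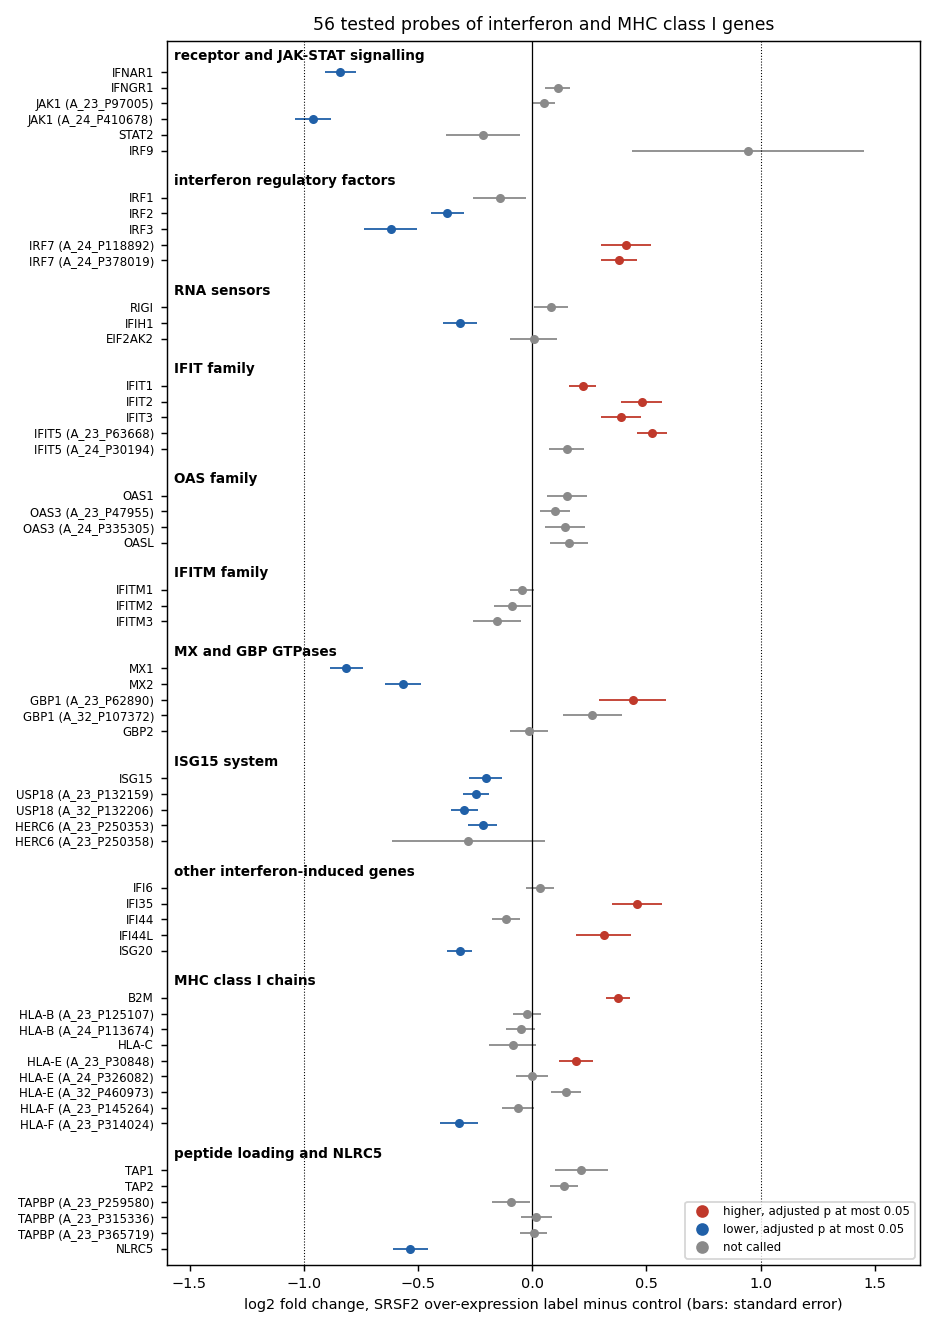
Log2 fold change of each of the 56 member probes tested (points; bars are standard errors, n = 6 arrays per condition), arrays labelled SRSF2 over-expression minus control, grouped by role. The 4 IFIT genes lie to the right of 0, IFNAR1, 1 JAK1 probe, IRF3, MX1, MX2 and NLRC5 lie to the left, and no called probe reaches the dotted lines at 2-fold.

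Among the receptor and JAK-STAT genes, 2 of 6 probes fell, none rose and 4 were not called. IFNAR1, a chain of the type I interferon receptor, measured -0.33, -0.16 and -0.08 (lowest, median, highest) in controls, against -1.16, -1.05 and -0.86 under the other label. Every control array was above every other array. The difference was -0.84 (SE 0.07, adjusted p = 4.25e-07, limma), a 1.79-fold lower signal.

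JAK1, the kinase bound to the receptors for type I, type II and type III interferon, was read by 2 probes that differed. With probe A_24_P410678, controls measured -0.66, -0.54 and -0.39 and the other arrays -1.68, -1.44 and -1.32, with no overlap. Its difference was -0.96 (SE 0.08, adjusted p = 3.66e-07), the largest among the called members in size. With probe A_23_P97005, controls measured -1.65, -1.55 and -1.40 and the other arrays -1.56, -1.50 and -1.44, so the values lay within each other. The difference was 0.05 (95% interval -0.06 to 0.16, adjusted p = 0.413), and the intervals of the 2 probes did not meet, since that of the first ran from -1.13 to -0.79.

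IFNGR1, STAT2 and IRF9 had no call. IFNGR1, the interferon gamma receptor chain, differed by 0.11 (adjusted p = 0.106, 0.0492 with slide as a block and 0.291 with that block on means of 2 arrays). STAT2 differed by -0.21 (adjusted p = 0.282), or by -0.07 without control replicate 5. IRF9, the DNA-binding partner of STAT2 in the ISRE-binding complex, is described here after its values were seen. It measured -4.27, -0.93 and -0.78 on control arrays and -0.56, -0.52 and -0.42 on the others, so the values did not overlap, although 1 control value stood far below the rest. The difference was 0.95 (SE 0.51, adjusted p = 0.13). Without that array, control replicate 6, it was 0.38 (adjusted p = 0.000151), and the remaining controls lay between -1.01 and -0.78.

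Of the 5 probes of interferon regulatory factors, 2 were higher, 2 were lower and 1 was not called. IRF3, which is present before infection and is activated by phosphorylation, measured 0.72, 0.85 and 1.00 in controls and 0.03, 0.09 and 0.60 on the other arrays, without overlap. It fell by 0.62 on the log2 scale (SE 0.11, adjusted p = 0.000454). Its difference was smaller on slide 2, at -0.40, than on slides 1 and 3, at -0.69 and -0.76.

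IRF7, which is itself interferon-induced and amplifies interferon production, was higher with both probes. Probe A_24_P118892 measured -3.73, -3.64 and -3.11 in controls and -3.37, -3.07 and -2.97 on the other arrays, with some overlap, and the difference was 0.41 (SE 0.11, adjusted p = 0.00582). The sign of this probe turned with another background correction (normexp), to -0.19. Probe A_24_P378019 differed by 0.38 (SE 0.08, adjusted p = 0.00122), with no overlap. IRF2, an antagonist of IRF1 at shared sites, was lower by a log2 difference of -0.37 (adjusted p = 0.000636). IRF1 differed by -0.14 (adjusted p = 0.312, 0.00920 with slide as a block and 0.169 with that block on means of 2 arrays).

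Among the RNA sensors, IFIH1 (MDA5), which binds long double-stranded RNA, was lower, with a difference of -0.32 (SE 0.07, adjusted p = 0.0024) and no overlap. RIGI, the sensor of 5′-triphosphate RNA, differed by 0.08 (95% interval -0.08 to 0.24). EIF2AK2 (PKR), which halts translation when it binds double-stranded RNA, differed by 0.01 (95% interval -0.21 to 0.23). Neither of the latter was called.

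The IFIT family, proteins that bind foreign RNA ends and block their translation, was the one family with all its tested genes higher. Of its 5 probes 4 rose, with no overlap in any of the 4. IFIT5 probe A_23_P63668 measured -1.67, -1.55 and -1.34 in controls and -1.12, -0.95 and -0.93 on the other arrays. It differed by 0.53 (SE 0.06, adjusted p = 1.47e-05), a 1.44-fold higher signal.

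IFIT2 probe A_23_P24004 measured -0.26, 0.02 and 0.06 in controls and 0.26, 0.37 and 0.66 on the other arrays. Its difference was 0.48 (SE 0.09, adjusted p = 0.000553), and it was larger on slides 1 and 3 than on slide 2. IFIT3 differed by 0.39 (SE 0.09, adjusted p = 0.00191) and IFIT1 by 0.22 (SE 0.06, adjusted p = 0.00562). The other IFIT5 probe, A_24_P30194, differed by 0.15 and was not called (adjusted p = 0.103). Its adjusted p was 0.00598 with slide as a block and 0.153 with that block on means of 2 arrays. Signals of neighbouring IFIT genes come from separate probes, but these genes are paralogs and shared hybridisation was not tested.

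The OAS family makes the messenger that activates RNase L, and none of its 4 tested probes was called (0 also at an unadjusted p under 0.05, and 0 with the methods' t-test). The differences of OAS1, OAS3 (2 probes) and OASL lay between 0.10 and 0.16, and their 95% intervals between -0.05 and 0.34. With slide as a block, OASL (adjusted p = 0.000891) and OAS1 (adjusted p = 0.0194) were called higher, and with that block on means of 2 arrays they were not (adjusted p = 0.0879 and 0.137). Neither OAS2 probe was bright enough to test. None of the 3 probes of the IFITM family, membrane proteins that hinder viral fusion, was called either (0 at an unadjusted p under 0.05 and 0 with the methods' t-test). IFITM1, IFITM2 and IFITM3 differed by -0.04, -0.09 and -0.15, with 95% intervals between -0.39 and 0.09. IFITM3 had an adjusted p of 0.0208 with slide as a block and 0.19 with that block on means of 2 arrays.

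The MX and GBP genes encode large GTPases, and here both MX genes were lower and 1 GBP1 probe was higher. MX1, which traps viral nucleocapsids, measured -1.31, -1.07 and -0.96 in controls and -2.04, -1.95 and -1.72 on the other arrays, with a gap between the conditions. It fell by 0.81 (SE 0.07, adjusted p = 9e-07), a 1.76-fold lower signal. MX2 probe A_23_P6263, for the relative active against lentiviruses, measured -3.15, -2.89 and -2.69 in controls and -3.63, -3.50 and -3.31 on the other arrays.

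The MX2 values did not overlap and differed by -0.57 (SE 0.08, adjusted p = 4.11e-05). GBP1, a GTPase that coats intracellular pathogens, measured -2.85, -2.64 and -2.37 with probe A_23_P62890 in controls and -2.66, -2.12 and -1.81 on the other arrays, with overlap. It differed by 0.44 (SE 0.15, adjusted p = 0.0215), and the call was lost at an adjusted p of 0.0501 without replicate 1 of the arrays labelled SRSF2 over-expression. Its other probe, A_32_P107372, differed by 0.26 (adjusted p = 0.0991, 0.00189 with slide as a block and 0.0549 with that block on means of 2 arrays), and GBP2 by -0.01 (adjusted p = 0.898).

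**Figure D3:**
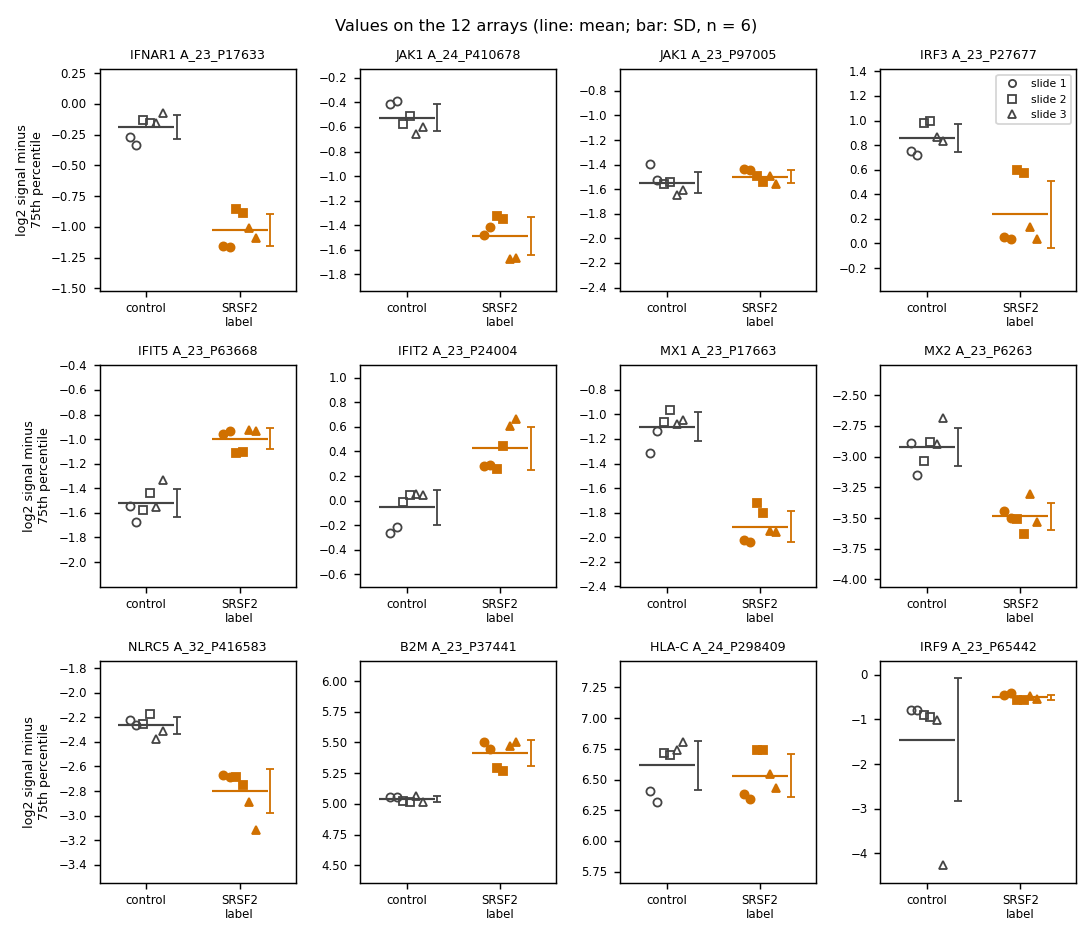
Log2 signal relative to the array's 75th percentile (vertical axis) for 12 member probes on the 6 control arrays (open) and the 6 arrays labelled SRSF2 over-expression (filled), with the slide as the symbol, the mean as a line and the SD as a bar. IFNAR1, JAK1 A_24_P410678, IRF3, MX1, MX2 and NLRC5 are lower and IFIT5, IFIT2 and B2M higher without overlap, JAK1 A_23_P97005 and HLA-C overlap, and 1 control array holds the IRF9 value of -4.27.

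In the ISG15 system, 4 of 5 probes fell and none rose. ISG15, the ubiquitin-like protein that is attached to other proteins during the response, had the smallest of these differences, at -0.20 (SE 0.07, adjusted p = 0.0282), with overlapping values. Its direction depended on the processing: it was 0.022 with normexp and 0.0089 with scaling on spike-in control probes, not called in either. Without control replicate 4, or replicate 2 or 6 of the other condition, its adjusted p was between 0.0535 and 0.0613. USP18, the protease that removes ISG15 and restrains the receptor, fell with both probes, by 0.25 and 0.30 (adjusted p = 0.00244 and 0.000831), with no overlap in either.

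HERC6, a relative of the ISG15 ligase HERC5, fell by 0.22 with probe A_23_P250353 (adjusted p = 0.0109). Its other probe was dim and differed by -0.28 with a wide 95% interval of -1.002 to 0.45, so that no difference was detectable with it.

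Among other interferon-induced genes, IFI35, which interacts with NMI in the cytoplasm, measured -1.24, -0.64 and -0.51 in controls and -0.31, -0.27 and -0.19 on the other arrays. The values did not overlap, and the difference was 0.46 (SE 0.11, adjusted p = 0.00276). IFI44L was higher by 0.31 (adjusted p = 0.0398), with overlap, a call that 13 of 28 alternatives lost. Without control replicate 2, the lowest control, the difference was 0.19 (adjusted p = 0.011). Without replicate 1, 2, 5 or 6 of the arrays labelled SRSF2 over-expression it was not called (adjusted p from 0.0616 to 0.082), nor with the methods' t-test (adjusted p = 0.0595). ISG20, a 3′ exonuclease for RNA, was lower by a difference of -0.32 (SE 0.05, adjusted p = 0.000214), with no overlap. IFI44 and IFI6 differed by -0.12 and 0.03 and were not called.

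The MHC class I chains gave 2 higher probes, 1 lower and 6 without a call. B2M, the light chain shared by all class I molecules, was one of the reference transcripts in the study's RT-PCR. It measured 5.01, 5.04 and 5.07 on control arrays and 5.27, 5.46 and 5.51 on the others. Controls were close to each other, the other arrays lay above all of them, and the difference was 0.38 (SE 0.05, adjusted p = 5.21e-05), a 1.30-fold higher signal. It was 0.42, 0.26 and 0.45 on the 3 slides.

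Most heavy chain probes were not called. Both HLA-B probes and the HLA-C probe had differences of -0.02, -0.05 and -0.09 and 95% intervals between -0.31 and 0.14. HLA-E, the ligand of the NKG2A receptor on natural killer cells, was higher with probe A_23_P30848 (difference 0.19, adjusted p = 0.0416, with overlap), and 17 of 28 alternatives lost this call, among them leaving out control replicate 1, 2, 3, 5 or 6 or replicate 3 or 4 of the other condition (adjusted p from 0.0509 to 0.0881). Its other 2 probes differed by 0.00 and 0.15 and were not called. For the latter, A_32_P460973, the adjusted p was 0.025 with slide as a block and 0.18 with that block on means of 2 arrays. HLA-F was lower with probe A_23_P314024 (difference -0.32, adjusted p = 0.00563, no overlap) and not called with the other (-0.06). Class I heavy chain genes are close paralogs, and how far each probe also reads the others could not be told apart here.

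Of the 6 tested probes for peptide loading and its regulator, 1 fell. NLRC5, the transactivator of class I promoters, measured -2.38, -2.26 and -2.17 with probe A_32_P416583 in controls and -3.12, -2.72 and -2.67 on the other arrays. The conditions did not overlap and differed by -0.53 (SE 0.08, adjusted p = 6.94e-05). Its other 2 probes were too dim to test, with 3 and 2 control arrays and 0 of the other arrays well above background.

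TAP1 and TAP2, the 2 subunits of the peptide transporter, differed by 0.22 (adjusted p = 0.135) and 0.14 (adjusted p = 0.0726). Without control replicate 2, which was low, the TAP1 difference was 0.098. The adjusted p of TAP2 was 0.0164 with slide as a block and 0.137 with that block on means of 2 arrays. The 3 tested probes of TAPBP (tapasin), which joins TAP to empty class I molecules, differed by -0.09, 0.02 and 0.01, and none was called. A further TAP2 probe, A_23_P368067, was not tested since it was well above background on only 2 control arrays and 0 of the others. Its values were -4.93, -4.54 and -4.43 in controls and -6.67, -6.35 and -5.72 on the other arrays, so it was lower where the tested TAP2 probe was not.

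The 14 untested probes were left out for dimness. Besides those of OAS2, NLRC5 and TAP2, they were all 3 probes of XAF1, both of TRIM22, and 1 each of IRF2, IFIT2, MX2 and TAPBP. OAS2, TRIM22 and XAF1 had no tested probe. Of the 70 member probes, 7 were well above background on no array.

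**Figure D4:**
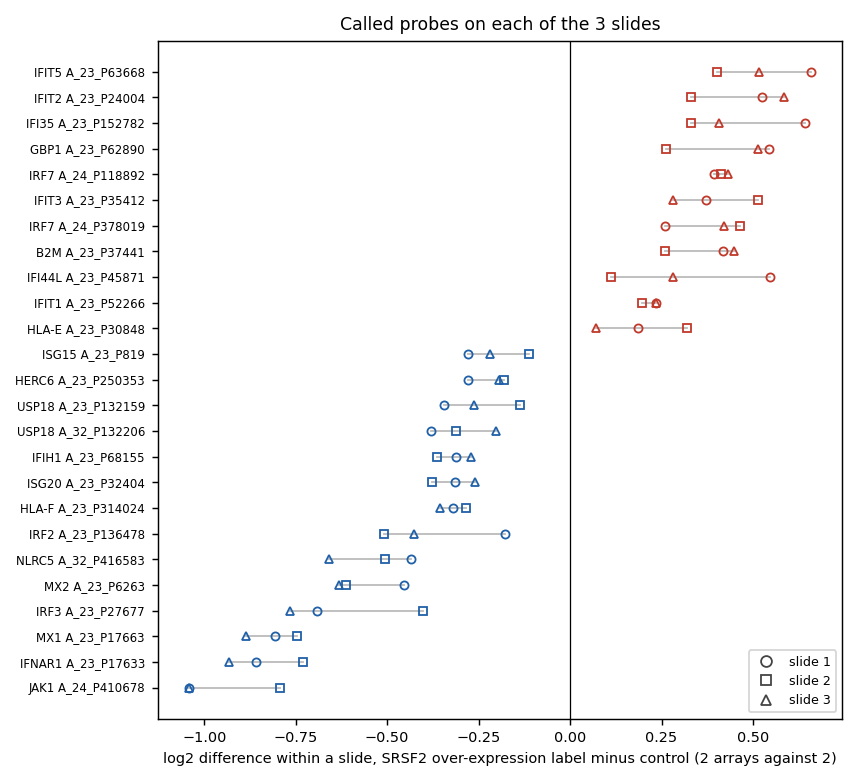
Log2 difference between conditions within each slide (horizontal axis; 2 arrays labelled SRSF2 over-expression minus 2 control arrays; symbols are slides) for the 25 called member probes. All 25 have the same sign on the 3 slides, from JAK1 and IFNAR1 at the lower end to IFIT5 and IFIT2 at the upper end.

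The genes around the members were followed through further lists, which were also drawn up with earlier results known. Among all probes tested, 57.9% were called (29.5% higher, 28.4% lower). Among 4 tested probes of other interferon ligands and receptors, 1 was higher: IL10RB, the shared chain of the interferon lambda and interleukin 10 receptors, by 0.45 (adjusted p = 0.0371, with overlap). Without control replicate 2, the lowest control at -1.78, the difference was 0.28 (adjusted p = 0.00506), and the methods' t-test did not call it (adjusted p = 0.0609). Nor was it called when control replicate 3, or any of replicates 2 to 6 of the arrays labelled SRSF2 over-expression, was left out (adjusted p from 0.0509 to 0.0737). Of the genes that encode interferons, IFNL2 was well above background on all 12 arrays and was not called (difference -0.16, adjusted p = 0.207), IFNE was above it on 3 control arrays, IFNG on 1 other array, and IFNB1, IFNL1 and IFNL3 on 0. The probe of IFNAR2, the partner chain of IFNAR1, was above it on 0 arrays too.

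Among 26 tested probes of other signalling genes, 12 were higher and 3 were lower (57.7% called, against 57.9% of all probes). PIAS1, an inhibitor of STAT signalling, was higher by 1.12 with probe A_23_P163353 (adjusted p = 8e-10). IKBKE, a kinase that phosphorylates IRF3 and IRF7, was lower, with a difference of -0.98 (adjusted p = 6.04e-07). With normexp both kept their sign but lost the call, PIAS1 at 0.53 (adjusted p = 0.18) and IKBKE at -0.69 (adjusted p = 0.319).

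Among 54 tested probes of 34 other interferon-induced genes, 21 were higher and 16 lower (68.5% called, against 57.9% of all probes). Unlike the members, 4 were at least 2-fold higher and 5 at least 2-fold lower (3.65% and 3.37% of all probes). All 5 of the latter belong to PML, the organiser of nuclear bodies, whose probes range from -2.06 (A_24_P198598, adjusted p = 3.14e-11) to -0.12 (A_23_P358944, not called). ADAR, which edits adenosine in double-stranded RNA, was higher by 2.47 with probe A_23_P200439 (SE 0.10, adjusted p = 1.49e-09) and by 0.16 with probe A_24_P362317 (adjusted p = 0.0128). ZC3HAV1, the zinc-finger antiviral protein ZAP, was higher by 2.28 with probe A_23_P20122 (adjusted p = 1.46e-10) and by 1.94 with probe A_24_P341938 (adjusted p = 1.95e-09). The latter was well above background on 5 of 6 control arrays. With probe A_23_P425224 the difference was -0.02, without a call. For these 3 genes, as for JAK1, probes of 1 gene differed in size, and for PML, ZC3HAV1 and JAK1 also in call. By their RefSeq annotation, the higher ZC3HAV1 probes name the same transcript and the uncalled one names another. The uncalled PML probe names a transcript that no lower PML probe names. Both JAK1 probes name the same transcript, as do both ADAR probes. Which transcripts the probes read was not examined beyond this annotation.

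Among 21 tested probes of other antigen presentation genes, 5 were higher and 3 lower (38.1% called, against 57.9% of all probes). The 3 lower probes were all of RFX subunits, which bind the promoters that NLRC5 acts on: RFXANK (difference -1.41, SE 0.08, adjusted p = 2.49e-08), RFXAP (-0.70, adjusted p = 0.00133) and RFX5 (-0.25, adjusted p = 0.00988). RFX5 is named after its values were seen, to complete the complex. The RFXAP call was lost with normexp (adjusted p = 0.432) and with spike-in scaling (adjusted p = 0.102). Its probe was well above background on 5 of 6 arrays labelled SRSF2 over-expression. ERAP1, which trims peptides in the endoplasmic reticulum, was higher by 0.45 (adjusted p = 0.000727), with its sign turned under normexp (-0.19, not called). The probes of the immunoproteasome subunits PSMB8 and PSMB9 were not called, with differences of -0.14 and -0.02.

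The calls depended on the background correction and on what counts as a replicate. With both arrays that a slide held of one condition averaged to 1 replicate (3 against 3), 14 of the 25 called probes were still called in the same direction, among them 10 of the 11 with a size of at least 0.4; GBP1 was the exception. With normexp, 3 were still called, the probes of IFNAR1, JAK1 (A_24_P410678) and IFIT2, and with scaling on spike-in probes 11 were, with a split of 9 higher and 3 lower members once IRF9 is counted, in place of 11 and 14. Under these 3 settings the share called among all probes was 38.8%, 11.7% and 27.1%.

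**Figure D5:**
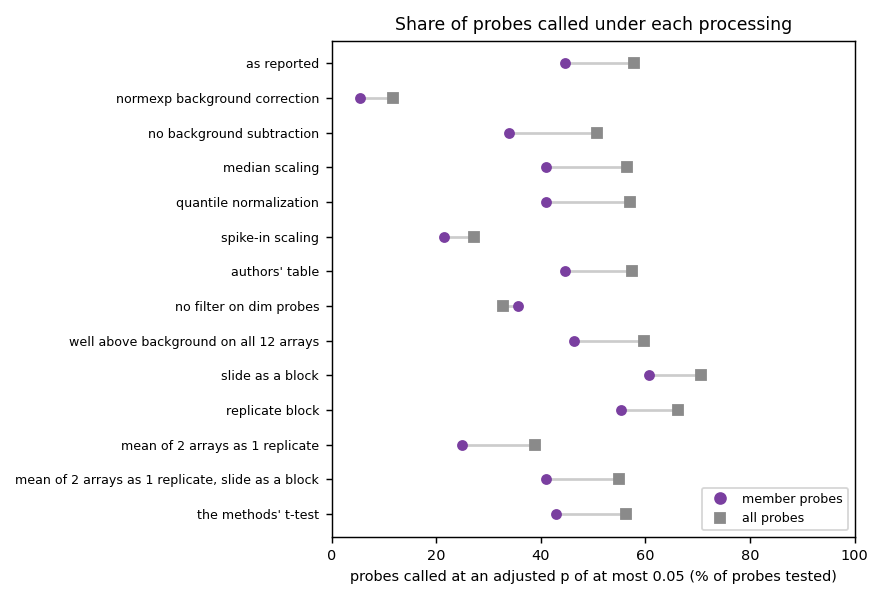
Percent of probes called at an adjusted p of at most 0.05 (horizontal axis) among the member probes tested (circles) and all probes tested (squares) under each processing (vertical axis). The members lie below all probes, at 44.6% against 57.9% as reported, except without the filter on dim probes, where they lie at 35.7% against 32.8%.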

How the data were processed

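The 12 arrays are 6 control and 6 SRSF2 over-expression samples by their labels. The authors deposited scanner output of Feature Extraction 10.7.3.1 (per the labels' processing notes), in which the processed intensity of a spot is its background-subtracted signal, and a table of log2 values, which equals log2 processed intensity minus the array's 75th percentile, centred per probe (largest difference 1.76e-06). The normalization of that table is not named in the study's methods, which give GeneSpring GX, at most 25% missing values, a 2-fold threshold and a t-test adjusted by Benjamini-Hochberg. The custom splicing arrays, RT-PCR and tumours were not analysed here.

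From the intensities, log2 values of spots without outlier flags were averaged per probe and set against the 75th percentile over that array's gene probes by subtraction. Tested were the 24338 probes with no more than 25% missing arrays that 5 or more of the 6 arrays of either condition showed well above background. The test was limma's moderated test (version 3.58.1, R 4.3.3; lmFit, then eBayes) with no covariate. Tables and figures were made with Python 3.11.15 and pandas 2.3.3. Of 25868 probes with a RefSeq accession, 23958 were named through the GRCh38.p14 table. The simulated check on 23747 probes recovered 61 of 100 probes changed by 0.5 and 90 of 100 changed by 1 on the log2 scale, with 8 others called. It drew independent noise for each array and changed far fewer probes than were called in the data. The real arrays share slide effects, so these rates need not hold for them.

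The members and lists were chosen with earlier results of these data known. Full values are given for called member probes with a size of at least 0.4, for SRSF2 and for B2M. Other members are given by fold change, and from each list the 3 largest called changes, except that some genes of the lists are not reported here. Probes of 1 gene were kept apart. Same-numbered arrays of the conditions deviated together from their group means (correlations 0.28 to 0.64 over 6 pairs). Arrays of other numbers on the same slide did so as much (0.33 to 0.65), and arrays on other slides did not (-0.48 to -0.05), so the numbers pair through the slide. Alternatives were normexp (offset 50) and no background subtraction, both on median spot signals, median, quantile and spike-in scaling (6 probes), the authors' table, 2 filters, slide or replicate block, means of 2 arrays, the methods' t-test, and leaving out arrays or slides. The number of arrays limits the precision.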

Additional observations from a re-analysis of the deposited data

Results flagged for a closer look

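Among 111 sets of 6 values of the tested members, 7 values stood apart from the rest of their condition by Dixon's test, which by chance marks about 1 set in 20. Control replicate 2 held 3 of them: RIGI at 0.65 (the other controls lay between 0.35 and 0.44), IFI44L at 0.12 (others 0.80 to 0.91) and TAP1 at 2.22 (others 2.82 to 3.03). In control replicate 6, IRF9 was at -4.27 (others -1.01 to -0.78). In control replicate 5, STAT2 was at -2.98 (others -4.00 to -3.76). In the arrays labelled SRSF2 over-expression, HERC6 probe A_23_P250358 was at -4.63 in replicate 4 (others -3.94 to -3.62) and TAP1 at 3.16 in replicate 5 (others 2.95 to 3.03).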

How the results depend on the processing

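Under 28 alternatives, 3 of the 25 called member probes were called in the same direction in every one (IFNAR1, JAK1 A_24_P410678, IFIT2 A_23_P24004), and 2 turned sign. With normexp, IRF7 A_24_P118892 was at -0.19 and ISG15 at 0.022, 1 member was higher, 2 were lower and 2843 of all probes were called, and the median of all probes was -0.11. With spike-in scaling, ISG15 was at 0.0089, 3 members were lower, 1 (IRF9) was past 2-fold, 6601 of all probes were called, 76.8% of them higher against 50.9%, and the medians of members and of all probes were both 0.22. Without background subtraction 7 members were higher. Without the filter on dim probes 1 member, TAP2 A_23_P368067, was past 2-fold. Its signal was 3.16-fold lower as measured, with only 2 control arrays and 0 others well above background, so the size is uncertain. With means of 2 arrays 6 were higher and 8 lower, and with slide as a block as well 23 of the 25 calls were kept. With slide as a block 18 were higher and 16 lower. With the replicate block, the pairing by number, 16 were higher and 15 lower; the block lost no call and added IRF1, IFIT5 A_24_P30194, OAS1, OASL, GBP1 A_32_P107372 and TAP2 to them. With slide as a block on means of 2 arrays, 0 of the calls that either block added were made. Leaving out 1 array or 1 slide gave 9 to 12 higher, 13 to 14 lower, 0 to 2 past 2-fold (2 without slide 2, JAK1 among them), 12056 to 14393 of all probes called, and a member median between -0.03 and 0.04. The cause of these differences was not tested. Signal over background limits the dim probes, such as those of HERC6 and STAT2.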
